A study of Rattus norvegicus with 12 samples.

Results

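The data describe the hearts of rats that had a myocardial infarction (MI) and were then given urolithin A (UA), set against the hearts of sham-operated rats. Members were chosen by their labels alone. The 4 libraries labelled surgery+UA (MI + UA; rats 29, 58, 64 and 66) were compared with the 4 labelled vehicle (Sham; rats 12, 17, 32 and 38), which made 8 of the 12 libraries of the series. The other 4, labelled surgery (MI; rats 36, 57, 61 and 89), served for reference. All rats were male Wistar animals, 7 weeks old at surgery. In the MI and MI + UA rats the left anterior descending coronary artery was tied permanently. By the series' design text, UA was given daily by oral gavage at 50 mg/ml for 8 weeks, beginning 24 h after surgery, and the Sham and MI rats received the carboxymethylcellulose vehicle on the same schedule. The study's main text gives a later start and states the dose per body weight, so the start and dose are uncertain. RNA came from sections of the middle left ventricle, fixed in formalin and embedded in paraffin, and each library was 1 rat. Rat 66 is labelled surgery+UA, but the study's echocardiography table lists a rat 66 among the vehicle-treated MI rats. It was kept where its label puts it, and the count of all calls is also given without it. A rat is a biological replicate here, but the sections hold scar, border and surviving muscle in proportions that the labels do not give.

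After a coronary artery is tied, dead muscle is cleared by macrophages and replaced by a collagen scar that fibroblasts lay down. The surviving muscle carries more load, takes up part of its fetal gene programme again and burns less fatty acid. UA is a metabolite that gut bacteria make from ellagitannins, and it is known as an inducer of mitophagy, the removal of damaged mitochondria.

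Between 6228706 and 19031695 reads per library fell on genes. Mitochondrially encoded genes took 53.9% ± 2.76 of them in MI + UA and 56.2% ± 2.30 in Sham (SD, n = 4 each; exact permutation test, two-sided, p = 0.257). More genes had a count in MI + UA (17834 to 19228) than in Sham (17109 to 17705), and 2 of the 4 MI + UA libraries were the deepest of the series. This difference and a lower share of reads on the 10 most abundant other genes both had an exact permutation p = 0.0286, the smallest that 4 against 4 rats allow, and 0.0715 after Benjamini-Hochberg adjustment over 5 library measures. Rat 58 stood apart through nerve genes. Where leaving out any 1 Sham or MI + UA rat moved the count of called genes of a list by more than 1.5 times, the rats and the counts are given beside it.

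Of 18182 genes tested, 1716 (9.44%) passed an adjusted p of 0.05 between MI + UA and Sham (edgeR quasi-likelihood test, Benjamini-Hochberg adjustment over all genes tested). Of all genes tested, 5.16% were called higher and 4.27% lower. The rises were the larger changes: 372 of the higher genes and 29 of the lower genes changed more than 2-fold, and 120 and 4 changed more than 4-fold. The median log2 fold change was 0.84 over the called higher genes and -0.45 over the called lower genes, against 0.02 over all genes tested. The 4 MI + UA rats lay entirely above or below the 4 Sham rats in 1482 of the 1716 called genes, and in 18.7% of the 11986 better-measured genes, whose average log2 CPM (read counts scaled to library size) was 1 or more. Calls were rare among the other genes, at 1.81%. Leaving out single rats gave 1155 (without rat 38) to 1895 calls (without rat 66), and 1255 without rat 58. Of the 1716 genes, 64.5% or more were called again each time, and none with the opposite sign.

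**Figure D1:**
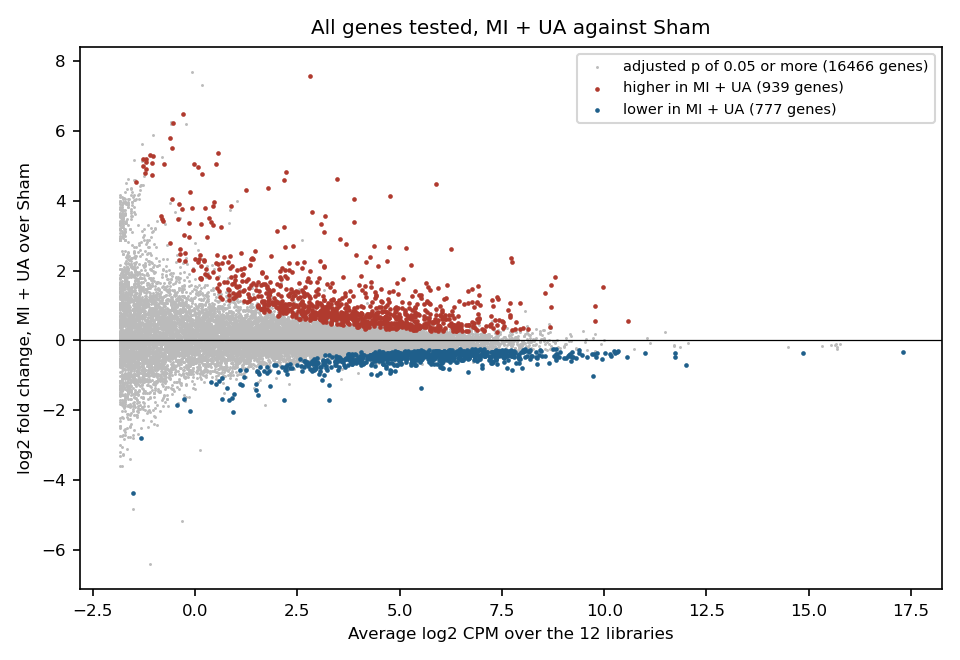
Log2 fold change of MI + UA over Sham (vertical axis) against average log2 CPM (horizontal axis) for each of the 18182 genes tested. Red points are the 939 genes higher in MI + UA, blue points the 777 lower, and grey points did not pass; the red points reach several log2 units, while nearly all blue points lie between 0 and -2.

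The genes of 55 lists, grouped by role, are described in turn. Some genes belong to several lists, so the counts of different lists are not independent. Per-rat values are TMM-scaled CPM, given in the order of rats 12, 17, 32 and 38 for Sham, 29, 58, 64 and 66 for MI + UA, and 36, 57, 61 and 89 for MI. Adjusted p-values are from the edgeR fit. MI + UA and MI share the same Sham rats as their reference, so changes of both against Sham are set side by side only. In bulk tissue, fewer cells of a type and less RNA per cell cannot be told apart.

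**Figure D2:**
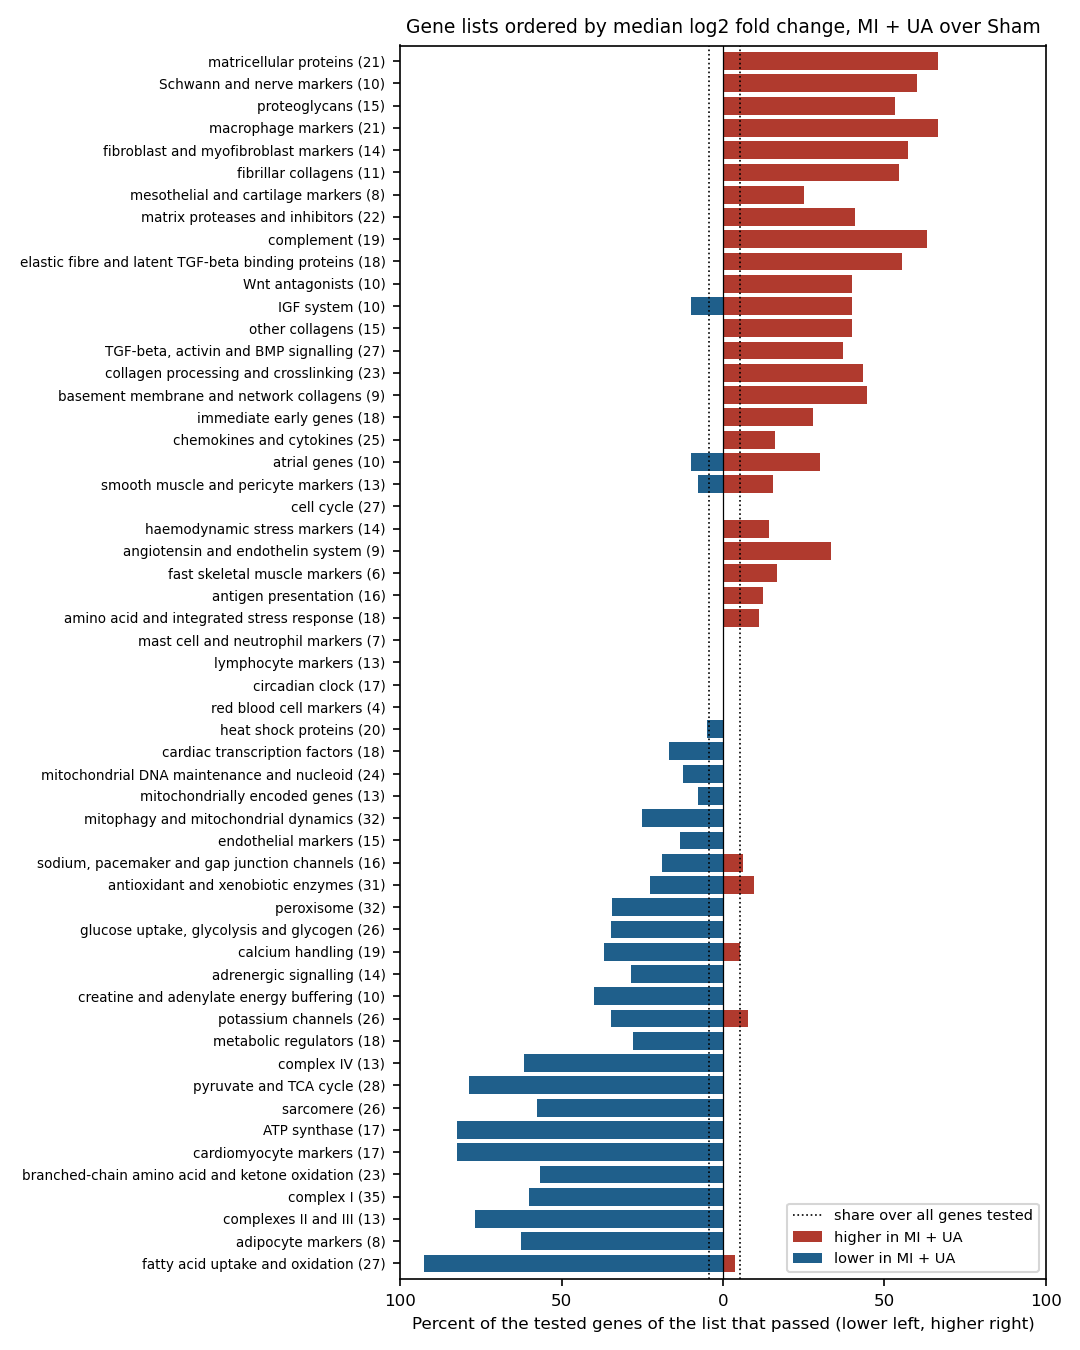
Percent of the genes tested in each list (number in brackets) that passed an adjusted p of 0.05, higher in MI + UA to the right in red and lower to the left in blue, with lists ordered by median log2 fold change. Dotted lines mark 5.16% higher and 4.27% lower over all genes; matrix, macrophage and complement lists extend to the right, and fatty acid, TCA cycle and respiratory chain lists to the left.

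Part of the collagen genes and of the enzymes that mature collagen were called higher in MI + UA than in Sham. Of 11 fibrillar collagens, which form the tensile fibres of scar, 6 were called higher and 0 lower (list median 0.82 on the log2 scale). Col3a1, the collagen of young and compliant scar, read 374, 495, 472 and 482 CPM in Sham and 1146, 1592, 1531 and 969 CPM in MI + UA. Every MI + UA rat lay above every Sham rat (log2 fold change 1.52 ± 0.15 (SE), adjusted p = 2.39e-06), and rats 58 and 64 were the highest. Col1a1 and Col1a2, the chains of the stiffer type I collagen, rose by 1.59 ± 0.20 and 1.36 ± 0.14 (SE; adjusted p = 4.62e-05 and 3.49e-06). Col8a1, a short-chain network collagen, went from 4.52, 5.2, 3.87 and 5.25 CPM to 27.7, 24.4, 28.6 and 18.6 CPM (log2 fold change 2.38 ± 0.17 (SE), adjusted p = 4.54e-08). Of the other lists, 4 of 9 basement membrane and network collagens and 6 of 15 further collagens were called higher, and 0 lower. Col4a1, the main chain of basement membranes, did not pass (log2 fold change 0.17 ± 0.09, adjusted p = 0.295).

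Among collagen-processing genes, 10 of 23 were called higher and 0 lower. Plod2, a lysyl hydroxylase that sets the collagen crosslinks typical of fibrosis, read 23.7, 21.6, 24.4 and 25.3 CPM in Sham and 67.2, 68.7, 68.6 and 70.6 CPM in MI + UA, so the 4 treated rats lay close together and above Sham (log2 fold change 1.53 ± 0.10 (SE), adjusted p = 5.43e-09). The lysyl oxidases Loxl1, Loxl2 and Lox, which crosslink collagen and elastin, rose by 1.47 ± 0.16, 1.04 ± 0.10 and 1.05 ± 0.23 (SE; adjusted p = 9.22e-06, 2.63e-06 and 0.00587).

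Matrix genes other than collagens held the largest rises among genes with an average log2 CPM of at least 1. That average covers all 12 libraries, so a gene almost absent from Sham can reach it through the infarcted rats alone. The ranking of rises is therefore a description only. Matricellular proteins, which signal to cells rather than bear load, had 14 of 21 genes called higher and 0 lower, and its median of 1.98 on the log2 scale was the highest of the 55 lists. In MI rats the same list had a median of 2.09 against Sham. Comp, a cartilage matrix protein that organises collagen fibrils, read 0.126, 0.144, 0.168 and 0.238 CPM in Sham and 6.46, 3.98, 7.17 and 3.32 CPM in MI + UA (log2 fold change 4.82 ± 0.54 (SE), adjusted p = 9.37e-06). Thbs4, a thrombospondin of stressed heart, went from 0.878, 1.16, 2.86 and 0.715 CPM to 14.5, 22.4, 31.8 and 21.5 CPM (log2 fold change 4.06 ± 0.32 (SE), adjusted p = 8.91e-08). Postn, made by activated fibroblasts, read 2.63, 6.21, 3.54 and 4.89 CPM against 15.7, 40.8, 47.4 and 13.6 CPM (log2 fold change 2.71 ± 0.40 (SE), adjusted p = 0.000186). For each of these genes the groups did not overlap.

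Several matricellular genes split the treated rats. Spp1 (osteopontin), a product of macrophages and fibroblasts, read 2.51, 3.17, 1.85 and 3.22 CPM in Sham and 25.4, 76.8, 81.9 and 14.3 CPM in MI + UA (log2 fold change 4.13 ± 0.62 (SE), adjusted p = 0.000243). Fn1, the fibronectin of provisional matrix, read 61.7, 55.6, 65.2 and 73.4 CPM against 140, 442, 469 and 178 CPM (log2 fold change 2.25 ± 0.35 (SE), adjusted p = 0.000303). In both, rats 58 and 64 lay well above rats 29 and 66. Tnc, a matrix protein of injury borders, read 0.753, 0.577, 1.68 and 0.954 CPM in Sham and 2.51, 42.4, 6.9 and 1.86 CPM in MI + UA (log2 fold change 3.67 ± 0.91 (SE), adjusted p = 0.0123). Rat 58 alone carried most of the Tnc signal, and without it the log2 fold change was 1.8 and still called.

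The elastic fibre and latent TGF-beta binding list had 10 of 18 genes higher and 0 lower. Ltbp2, which binds fibrillin microfibrils, gave the smallest adjusted p of all genes. It read 3.14, 3.61, 4.54 and 4.17 CPM in Sham and 96.3, 68.6, 112 and 67.2 CPM in MI + UA (log2 fold change 4.48 ± 0.19 (SE), adjusted p = 3.75e-12), and in MI it read 83, 84.8, 98.1 and 74 CPM. The treated rats, at 67.2 to 112 CPM, lay on both sides of the MI values. Fbn1 and Fbln1, fibrillin and fibulin of the microfibril, rose by 1.24 ± 0.15 and 1.41 ± 0.12 (SE; adjusted p = 1.8e-05 and 1.61e-07). Of 15 proteoglycans, 8 were higher and 0 lower. Bgn (biglycan), a small collagen-binding proteoglycan, went from 143, 173, 166 and 168 CPM to 632, 601, 614 and 424 CPM (log2 fold change 1.8 ± 0.13 (SE), adjusted p = 6.82e-08). Dcn (decorin), a proteoglycan of resting fibroblasts, did not pass (log2 fold change 0.26 ± 0.11 (SE), adjusted p = 0.171).

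Matrix proteases and their inhibitors had 9 of 22 genes called higher and 0 lower; 12 were called without rat 66. Mmp12, the macrophage elastase, had 2 reads in the 4 Sham libraries together and 530 in the 4 MI + UA libraries, a ratio of 154 with a 95% counting interval of 42.3 to 1271. Its CPM was 0.4, 18.4, 44.8 and 2.76 in the treated rats, against 0.877, 0.314, 1.97 and 15.7 in MI, so rats 58 and 64 were high and rat 29 near the Sham level. Its promoter is shown because this was the largest log2 rise among called genes with an average log2 CPM of at least 1. Sequences are RefSeq windows of the GRCr8 assembly, 250 bases before to 50 after the gene start, 5′ to 3′, and the capitals mark TGANTCA, the letters of an AP-1 site, and TATAAA, the core promoter box:
Mmp12 (chr8:12866402-12866701, + strand): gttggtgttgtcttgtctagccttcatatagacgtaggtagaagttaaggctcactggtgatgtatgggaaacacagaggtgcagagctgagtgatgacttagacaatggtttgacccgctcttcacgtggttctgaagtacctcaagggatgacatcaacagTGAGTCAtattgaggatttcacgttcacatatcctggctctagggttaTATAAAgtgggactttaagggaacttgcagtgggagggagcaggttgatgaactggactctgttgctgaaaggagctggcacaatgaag
Searched on both strands, TGANTCA stood in 7.33% and TATAAA in 14.2% of all 33469 promoter windows; such a match is a description of the letters and not a site of binding. Timp1, an inhibitor of these proteases, rose by 1.79 ± 0.24 (SE; adjusted p = 7.61e-05), from 1.63, 2.6, 3.54 and 3.81 CPM to 8, 10.2, 13.8 and 8.83 CPM.

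Part of the fibroblast markers and of the growth factor signalling genes were higher. Of 14 fibroblast and myofibroblast markers, 8 were called higher and 0 lower, and 10 without rat 66. The summed level of the list was 351 to 399 CPM in Sham rats and 581 to 795 CPM in MI + UA rats. Its part in the matrix results was not tested. Pi16, a marker of adventitial fibroblasts, was higher (log2 fold change 1.65 ± 0.19 (SE), adjusted p = 1.07e-05). Runx1, a transcription factor of activated fibroblasts and stressed myocytes, rose as well (log2 fold change 1.66 ± 0.22 (SE), adjusted p = 5.53e-05). Pdgfra, the alpha receptor for PDGF and a fibroblast marker, had a smaller rise (log2 fold change 0.53 ± 0.11 (SE), adjusted p = 0.00309). Acta2, the smooth muscle actin of myofibroblasts, read 32.5, 33.2, 40.1 and 39.9 CPM in Sham and 51.8, 44.4, 51.3 and 38.4 CPM in MI + UA, with overlapping groups, and did not pass (log2 fold change 0.35 ± 0.17 (SE), adjusted p = 0.236).

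TGF-beta, activin and BMP signalling had 10 of 27 genes higher and 0 lower (8 without rat 58). The ligand Tgfb2 read 16.9, 32.2, 28.8 and 29.4 CPM in Sham and 62, 55.9, 43 and 72.3 CPM in MI + UA (log2 fold change 1.13 ± 0.21 (SE), adjusted p = 0.0017). Ccn2, the classic TGF-beta target also called CTGF, rose by 1.12 ± 0.22 (SE; adjusted p = 0.00251). The extracellular inhibitors Fst and Fstl3, which trap activin, rose as well, by 1.76 ± 0.41 (SE; adjusted p = 0.00797) and 1.27 ± 0.24 (SE; adjusted p = 0.00152). Of 10 Wnt antagonists, 4 were higher and 0 lower. Sfrp2, which binds Wnt ligands, went from 4.39, 7.5, 5.55 and 3.7 CPM to 33.9, 36.9, 37.5 and 27.3 CPM (log2 fold change 2.69 ± 0.21 (SE), adjusted p = 8.91e-08). In the IGF system, 4 of 10 genes were higher and 1 lower. Igf1, a growth factor made by macrophages and fibroblasts, rose by 1.15 ± 0.20 (SE; adjusted p = 0.000984), and Igf2, its fetal counterpart, fell by 0.70 ± 0.16 on the log2 scale (SE; adjusted p = 0.00709).

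**Figure D3:**
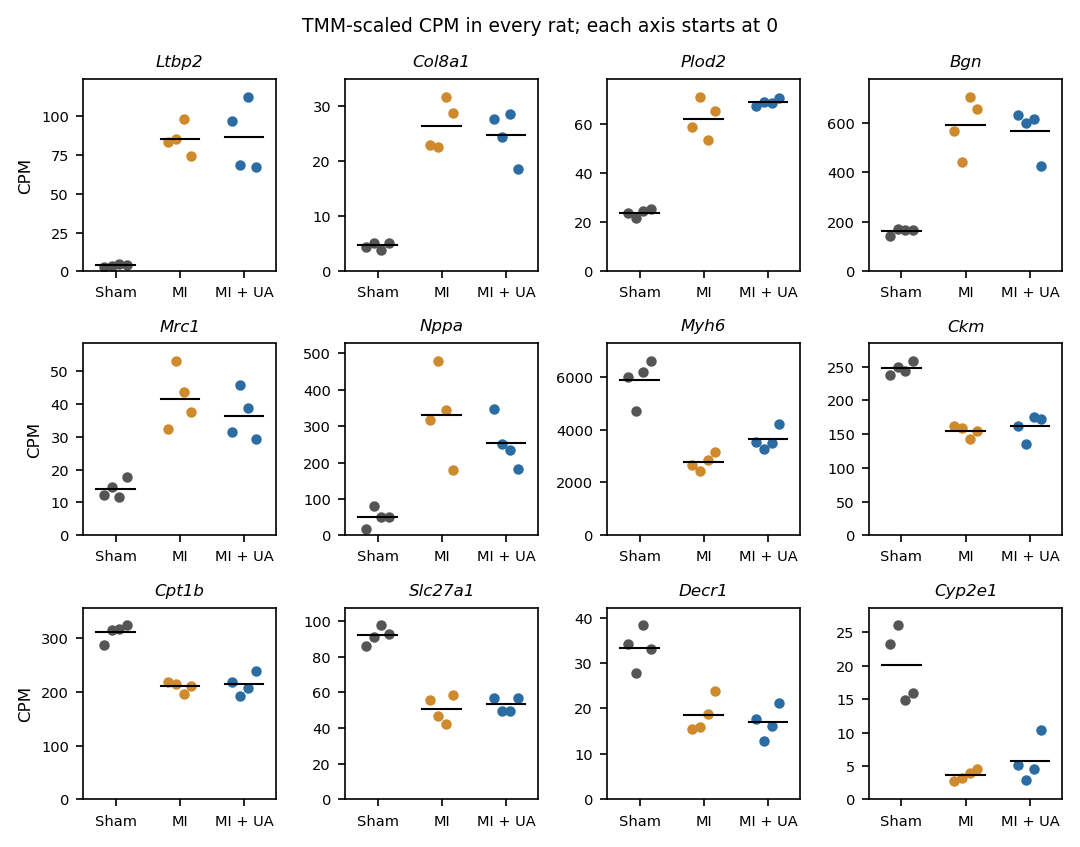
TMM-scaled CPM of 12 genes in every rat (points; bars are group means; vertical axes start at 0). In the matrix, macrophage and stress genes the MI + UA points lie above all Sham points; in Myh6 and the metabolic genes they lie below them; the MI points lie in or next to the MI + UA range.

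Part of the contractile genes of the myocyte were called lower, while few classic stress genes were called. Of 26 sarcomere genes, 15 were called lower and 0 higher, at a list median of -0.38, and 11 were lower without rat 58. Tnni3, the cardiac troponin I, read 867, 685, 702 and 807 CPM in Sham and 540, 399, 523 and 580 CPM in MI + UA (log2 fold change -0.58 ± 0.10 (SE), adjusted p = 0.00111). Myl3, an essential light chain of ventricular myosin, fell by 0.54 ± 0.08 on the log2 scale (SE; adjusted p = 0.000307). Myh6, the fast adult myosin heavy chain of rat heart, read 5974, 4708, 6185 and 6590 CPM against 3526, 3274, 3481 and 4223 CPM (log2 fold change -0.69 ± 0.11 (SE), adjusted p = 0.000316). The slow fetal chain Myh7 read 1341, 3691, 1978 and 2048 CPM against 3094, 2183, 2595 and 2841 CPM, with groups that overlapped, and did not pass (log2 fold change 0.24 ± 0.21 (SE), adjusted p = 0.552), but passed without rat 17 (0.58, adjusted p = 0.0316). The pair are near-identical in sequence, so reads could be divided between them in ways that the counting does not show.

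Of 14 genes of haemodynamic stress, 2 were called higher and 0 lower, while 4 were higher without rat 17 or 64 and 1 with rat 66 counted in MI. The share called, 14.3%, was near the 13.4% called among genes with an average log2 CPM of 1 or more. Nppa, the atrial natriuretic peptide that ventricles make under strain, read 18.3, 80.1, 49.8 and 49.4 CPM in Sham and 347, 252, 235 and 183 CPM in MI + UA (log2 fold change 2.37 ± 0.31 (SE), adjusted p = 5.06e-05). Its Sham values ran from the low rat 12 to the higher rat 17, and all treated rats lay above them. Xirp2, a stress-responsive intercalated disc protein, rose by 0.56 ± 0.14 (SE; adjusted p = 0.0148), but did not pass with rat 66 counted in MI (0.44, adjusted p = 0.0656). Nppb, the B-type peptide, read 100, 240, 223 and 216 CPM against 259, 174, 191 and 258 CPM and did not pass (log2 fold change 0.18 ± 0.23 (SE), adjusted p = 0.708). Ankrd1 and Acta1, a stretch-induced ankyrin protein and the fetal skeletal actin, did not pass either, at log2 fold changes of 0.19 ± 0.18 and 0.83 ± 0.28 (adjusted p = 0.605 and 0.0694). Acta1 passed without rat 17, 58 or 64 (1.05, 1.02 and 1.00; adjusted p = 0.0385, 0.0278 and 0.0371) and with a minimum of 1 read (adjusted p = 0.00467). For Nppb and Ankrd1 rat 12 was the lowest Sham rat by far, and without it Nppb turned to -0.03.

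Genes of calcium cycling and excitation were lower in part. Shares are to be read against 9.44% called over all genes and 13.4% among genes with an average log2 CPM of 1 or more. Of 19 calcium-handling genes 7 were lower and 1 higher. Atp2a2, the SERCA pump that refills the sarcoplasmic reticulum, read 3904, 4220, 4058 and 4193 CPM in Sham and 2841, 3040, 3083 and 3677 CPM in MI + UA (log2 fold change -0.37 ± 0.09 (SE), adjusted p = 0.00728). Rat 66 was nearest to Sham, and the groups did not overlap. Ryr2, the release channel, and Hrc, a calcium-binding protein of the same store, fell by 0.37 ± 0.08 and 0.54 ± 0.10 on the log2 scale (SE; adjusted p = 0.00771 and 0.00186). Of 26 potassium channel genes, 9 were lower and 2 higher, 11 in all against 5 to 7 without rat 29, 32, 38, 58 or 64. Kcnip2, the beta subunit of the transient outward current, read 429, 481, 469 and 476 CPM against 360, 257, 371 and 367 CPM (log2 fold change -0.45 ± 0.11 (SE), adjusted p = 0.0117), and Kcnv2, a silent modulatory subunit, rose by 1.28 ± 0.26 (SE; adjusted p = 0.00288). Among sodium, pacemaker and gap junction channels 3 of 16 were lower and 1 higher. Scn4b, an auxiliary sodium channel subunit, went from 104, 104, 96.3 and 111 CPM to 61.8, 50.1, 50.6 and 69.6 CPM (log2 fold change -0.83 ± 0.10 (SE), adjusted p = 2.54e-05). Of 14 adrenergic genes 4 were lower (2 without rat 29 or 38). Of 18 cardiac transcription factors 3 were lower, with 0 without rat 32 or 38 and 1 without rat 29, 58 or 64. The share called among these factors, 16.7%, was near 13.4%, and their median log2 fold change was -0.07. Gata4, a core cardiac factor, did not pass (log2 fold change -0.06 ± 0.10 (SE), adjusted p = 0.774). Of 10 atrial genes, 3 were higher, Nppa included, and 1 lower, with 2 called without rat 32.

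The genes of fatty acid uptake and oxidation were the list with the highest share called. Of 27 genes tested, 25 were called lower and 1 higher, with a median log2 fold change of -0.56. In every fit that left out a rat 26 genes were called. The summed level was 4570 to 4970 CPM in Sham rats and 2890 to 3580 CPM in MI + UA rats. Slc27a1, a transporter that brings fatty acids into the cell, read 85.9, 91.2, 97.8 and 93 CPM in Sham and 56.8, 49.7, 49.4 and 57.1 CPM in MI + UA (log2 fold change -0.78 ± 0.10 (SE), adjusted p = 3.78e-05). Fabp3, the cytosolic carrier of fatty acids, read 361, 436, 453 and 518 CPM against 290, 238, 265 and 311 CPM (log2 fold change -0.68 ± 0.10 (SE), adjusted p = 0.000307). The groups did not overlap in either gene. 

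Cpt1b, the gate of fatty acid entry into mitochondria, read 288, 315, 316 and 324 CPM in Sham and 218, 192, 206 and 239 CPM in MI + UA (log2 fold change -0.54 ± 0.08 (SE), adjusted p = 0.000226). Acadm, the medium-chain dehydrogenase of beta-oxidation, fell by 0.50 ± 0.09 on the log2 scale (SE; adjusted p = 0.00136). Decr1, which handles the double bonds of unsaturated fatty acids, had the larger fall, from 34.1, 27.7, 38.4 and 33.1 CPM to 17.7, 12.8, 16.2 and 21.3 CPM (log2 fold change -0.95 ± 0.15 (SE), adjusted p = 0.00038). Ucp3, an inner membrane carrier that follows fatty acid supply, fell by 0.97 ± 0.18 (SE; adjusted p = 0.00138). The called rise was Slc27a6, another fatty acid transporter, with 0 reads in the 4 Sham libraries and 45 in MI + UA, at least 8.69-fold higher against a floor of 3 reads over the Sham group. Lpl, the lipase that frees fatty acids from lipoproteins, fell by 0.47 ± 0.08 (SE; adjusted p = 0.000602).

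Part of the genes for the oxidation of other fuels were called lower too. Of 28 genes of pyruvate oxidation and the TCA cycle, 22 were called lower and 0 higher (median -0.38; 19 without rat 58). Mdh1, a malate dehydrogenase, and Got2, its partner in the malate-aspartate shuttle, fell by 0.52 ± 0.09 and 0.57 ± 0.08 on the log2 scale (SE; adjusted p = 0.000612 and 0.000168). Pdk4, the kinase that switches off pyruvate dehydrogenase in fasting, read 1428, 932, 1308 and 1264 CPM in Sham and 288, 954, 411 and 760 CPM in MI + UA. Rat 58 reached the Sham range, while rats 29 and 64 were low (log2 fold change -1.03 ± 0.26 (SE), adjusted p = 0.0124; 0.0502 without rat 64). Of 23 genes for branched-chain amino acids and ketone bodies 13 were lower and 0 higher. Glucose genes followed with 9 of 26 lower and 0 higher (6 without rat 58). Pfkm, the muscle phosphofructokinase that commits glucose to glycolysis, read 134, 149, 147 and 150 CPM against 102, 97.3, 94.2 and 101 CPM (log2 fold change -0.55 ± 0.08 (SE), adjusted p = 7.72e-05). Slc2a4, the insulin-responsive glucose transporter GLUT4, and Slc2a1, the basal transporter GLUT1, did not pass, at -0.35 ± 0.12 and 0.16 ± 0.21 (adjusted p = 0.0694 and 0.734). Slc2a4 passed without rat 66 (-0.46, adjusted p = 0.0112) and in 4 other alternatives, DESeq2 among them (adjusted p = 0.0434). Ckm, the muscle creatine kinase that buffers ATP, read 238, 250, 244 and 259 CPM in Sham and 163, 136, 175 and 172 CPM in MI + UA, without overlap (log2 fold change -0.62 ± 0.08 (SE), adjusted p = 7.92e-05). It was among 4 of 10 energy-buffering genes that were lower, a count of 2 without rat 17, 29, 32, 38, 58 or 64.

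Nuclear genes of the respiratory chain were lower in all complexes. Called lower were 21 of 35 complex I genes, 10 of 13 genes of complexes II and III, 8 of 13 of complex IV and 14 of 17 of ATP synthase, and 0 were higher. Without rat 38 the count for complex IV was 5, and without rat 38 or 64 that for ATP synthase was 9. The medians were -0.40, -0.43, -0.36 and -0.39. The matching medians of MI against the same Sham rats were -0.46, -0.48, -0.44 and -0.51. Ndufa9, a complex I subunit, read 153, 146, 164 and 168 CPM in Sham and 110, 103, 107 and 116 CPM in MI + UA (log2 fold change -0.53 ± 0.08 (SE), adjusted p = 0.000178). Cox5a, a complex IV subunit, read 117, 111, 119 and 130 CPM against 82.5, 73.5, 78.6 and 86.5 CPM (log2 fold change -0.57 ± 0.09 (SE), adjusted p = 0.000354). Atp5f1b, the catalytic beta subunit of ATP synthase, read 1041, 1151, 1085 and 1156 CPM against 815, 737, 770 and 841 CPM (log2 fold change -0.49 ± 0.07 (SE), adjusted p = 0.000249). In all of them the groups did not overlap and rat 12 or 17 was the lowest Sham rat.

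Of the 13 mitochondrially encoded genes 1 passed, Mt-co1, a core subunit of complex IV. It read 206800, 192600, 178400 and 179400 CPM in Sham and 156700, 126700, 151000 and 165900 CPM in MI + UA (log2 fold change -0.34 ± 0.10 (SE), adjusted p = 0.0454), and it lost its call without rat 12, 17, 29, 32, 38, 58 or 64 (adjusted p up to 0.126). All 13 had lower means in MI + UA, by 0.09 to 0.46 on the log2 scale. Whether the nuclear and mitochondrial genes differed in their change was not tested.

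Promoters of respiratory chain genes are shown because these genes moved together; factors known to act on such genes in muscle are NRF-1 and the estrogen-related receptors (ERR). RefSeq held a window for 67 of the 75 respiratory chain and ATP synthase genes. AAGGTCA, the letters of an ERR element, stood in 13.4% of the 67 and in 4.61% of all 33469 windows. An NRF-1 element, GCGCA and GCGC with any 1 base between them, stood in 19.4% and 4.25%. The motifs cannot overlap each other, and both strands were searched. Among the 49 genes of this set called lower 6 held the ERR letters and 10 the NRF-1 letters, and among the 18 not called 3 and 3 did. Both motifs stood together in 4 promoters. Atp5mc3, a ring subunit of ATP synthase, and Ndufb4, a complex I subunit, are those 2 of the 4 that were called, and Sdha, the flavin subunit of complex II, held the NRF-1 letters at 3 places; capitals mark the motifs:
Atp5mc3 (chr3:79220615-79220914, - strand): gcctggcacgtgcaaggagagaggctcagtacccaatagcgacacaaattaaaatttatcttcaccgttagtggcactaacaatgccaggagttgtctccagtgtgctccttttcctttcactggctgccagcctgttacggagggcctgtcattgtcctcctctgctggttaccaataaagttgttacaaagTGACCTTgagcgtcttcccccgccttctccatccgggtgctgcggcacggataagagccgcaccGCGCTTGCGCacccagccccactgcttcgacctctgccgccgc
Ndufb4 (chr11:76568928-76569227, + strand): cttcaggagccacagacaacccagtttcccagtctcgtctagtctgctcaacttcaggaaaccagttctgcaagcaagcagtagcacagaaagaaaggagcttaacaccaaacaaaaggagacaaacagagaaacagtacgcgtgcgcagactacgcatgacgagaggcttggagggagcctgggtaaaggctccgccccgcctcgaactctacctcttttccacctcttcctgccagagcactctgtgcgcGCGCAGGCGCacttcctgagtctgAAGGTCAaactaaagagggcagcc
Sdha (chr1:30764303-30764602, + strand): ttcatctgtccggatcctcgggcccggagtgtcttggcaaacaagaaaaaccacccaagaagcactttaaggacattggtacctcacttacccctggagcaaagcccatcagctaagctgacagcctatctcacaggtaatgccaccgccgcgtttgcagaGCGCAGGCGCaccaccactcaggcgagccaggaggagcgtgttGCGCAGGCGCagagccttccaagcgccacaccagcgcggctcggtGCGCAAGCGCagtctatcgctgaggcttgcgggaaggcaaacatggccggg
In Atp5mc3 the ERR letters stand 57 bases before the gene start, on the other strand. Atp5mc3 read 213, 281, 269 and 284 CPM in Sham and 185, 183, 193 and 200 CPM in MI + UA (log2 fold change -0.46 ± 0.09 (SE), adjusted p = 0.00181). Ndufb4 read 42.1, 47.9, 47.6 and 49.5 CPM and 36.7, 37.5, 34.5 and 38.4 CPM (log2 fold change -0.34 ± 0.08 (SE), adjusted p = 0.0117), and Sdha fell by 0.48 ± 0.09 (SE; adjusted p = 0.00109).

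Genes that maintain or remove mitochondria were called lower in smaller shares, to be read against 4.27% called lower over all genes. Of 32 mitophagy and dynamics genes 8 were called lower and 0 higher, with a median of -0.17. Pink1, the kinase that marks damaged mitochondria for removal, read 398, 458, 447 and 458 CPM in Sham, 331, 282, 306 and 368 CPM in MI + UA and 322, 308, 284 and 296 CPM in MI. It fell by 0.45 ± 0.09 on the log2 scale against Sham (SE; adjusted p = 0.00189), and rat 66 was the treated rat nearest to Sham. Sqstm1 (p62), an autophagy receptor, read 161, 182, 178 and 190 CPM against 132, 118, 129 and 132 CPM (log2 fold change -0.48 ± 0.08 (SE), adjusted p = 0.000398). Fundc1, a mitophagy receptor of low oxygen, and Map1lc3a, the LC3 protein of autophagosomes, fell by 0.46 ± 0.10 and 0.54 ± 0.10 (SE; adjusted p = 0.00352 and 0.00199). Optn, another receptor, did not pass (log2 fold change -0.20 ± 0.09 (SE), adjusted p = 0.208), and Opa1, the fusion protein of the inner membrane, passed narrowly (log2 fold change -0.31 ± 0.09 (SE), adjusted p = 0.0424) and lost its call without rat 17, 32, 38, 58 or 64 (up to 0.143) or with libraries thinned to the smallest (0.0558).

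Mitochondrial DNA maintenance had 3 of 24 genes lower and 0 higher, 1 without rat 17, 29, 32, 38 or 58, a share near the 13.4% called among genes with an average log2 CPM of 1 or more. Clpx, a chaperone of the mitochondrial matrix protease ClpXP, kept its call without any 1 rat and fell by 0.55 ± 0.09 (SE; adjusted p = 0.000664). Tfam, which packs mitochondrial DNA, did not pass (log2 fold change -0.34 ± 0.17 (SE), adjusted p = 0.251). Of 18 metabolic regulators 5 were lower and 0 higher, 3 without rat 17 or 58 and 2 without rat 64. Ppargc1a, the coactivator PGC-1 alpha that drives mitochondrial genes, read 48.8, 51.7, 50.2 and 52.5 CPM in Sham and 40.9, 32.5, 31.7 and 44 CPM in MI + UA (log2 fold change -0.43 ± 0.11 (SE), adjusted p = 0.0147), and lost its call without rat 58 or 64 (up to 0.0545). Rxrg, a retinoid receptor partner of PPARs, fell by 0.61 ± 0.11 (SE; adjusted p = 0.00121). Of 32 peroxisomal genes 11 were lower and 0 higher. Pex11a, which divides peroxisomes under fatty acid load, went from 2.51, 2.74, 2.36 and 2.62 CPM to 0.571, 0.899, 0.947 and 0.844 CPM (log2 fold change -1.68 ± 0.33 (SE), adjusted p = 0.00244). Among 31 antioxidant and xenobiotic enzymes 7 were lower and 3 higher, 10 in all against 4 to 6 without rat 12, 17, 29, 38, 58 or 64. Cyp2e1, a cytochrome P450 that oxidises ethanol and fatty acids, read 23.3, 26.1, 14.8 and 16 CPM in Sham and 5.14, 2.95, 4.6 and 10.3 CPM in MI + UA (log2 fold change -1.72 ± 0.26 (SE), adjusted p = 0.000296). Cat, the catalase of peroxisomes, read 264, 255, 285 and 277 CPM against 199, 201, 174 and 200 CPM (log2 fold change -0.48 ± 0.08 (SE), adjusted p = 0.000714). Sod2, the mitochondrial superoxide dismutase, and Hmox1, a haem oxygenase, did not pass, at -0.27 ± 0.09 and -0.14 ± 0.23 (adjusted p = 0.0666 and 0.796). Sod2 passed without rat 12 (-0.35, adjusted p = 0.0126), by DESeq2 (adjusted p = 0.0314) and with TMM factors from nuclear genes (adjusted p = 0.0499), and Hmox1 passed without rat 66 (-0.60, adjusted p = 0.0111).

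Most macrophage markers and complement genes were called higher than in Sham, and no lymphocyte marker was called. Of 21 macrophage markers 14 were higher and 0 lower, with a median of 0.95, and their summed level was 193 to 246 CPM in Sham rats and 358 to 759 CPM in MI + UA rats. Mrc1 (CD206), a receptor of tissue-resident and repair macrophages, read 12.2, 14.6, 11.8 and 17.6 CPM in Sham and 31.3, 45.7, 38.7 and 29.4 CPM in MI + UA (log2 fold change 1.34 ± 0.17 (SE), adjusted p = 3.36e-05). Cd68, a lysosomal marker, read 6.65, 6.35, 6.73 and 7.75 CPM against 12, 17.7, 25.9 and 13.2 CPM (log2 fold change 1.28 ± 0.22 (SE), adjusted p = 0.000827). Gpnmb, a glycoprotein of lipid-laden macrophages, spread widest, with 9.53, 11.3, 9.76 and 9.06 CPM in Sham and 16.9, 67.3, 136 and 32.2 CPM in MI + UA (log2 fold change 2.63 ± 0.54 (SE), adjusted p = 0.00302). Rat 64 was the highest and rat 29 the lowest treated rat. Of 19 complement genes 12 were higher and 0 lower (10 without rat 58). C4a and C4b rose by 2.61 ± 0.32 and 2.16 ± 0.31 (SE; adjusted p = 2.54e-05 and 0.000159); they are near-identical copies, so how their reads were divided is uncertain.

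Of 25 chemokines and cytokines 4 were higher and 0 lower. This share of 16%, and that of 12.5% for antigen presentation, lay near the 13.4% called among genes with an average log2 CPM of 1 or more. Cxcl13, an attractant of B cells, read 1.76, 2.02, 1.51 and 0.715 CPM in Sham and 5.26, 13.4, 32.2 and 3.88 CPM in MI + UA (log2 fold change 3.10 ± 0.69 (SE), adjusted p = 0.00582), with rats 58 and 64 again above rats 29 and 66. Ccl2, which draws monocytes, rose by 1.36 ± 0.32 (SE; adjusted p = 0.00801). Antigen presentation had 2 of 16 genes higher, and 4 without rat 66. RT1-Da, a class II chain, read 22.6, 23.5, 19.9 and 26.4 CPM against 38.4, 30.9, 54.5 and 34.2 CPM (log2 fold change 0.76 ± 0.14 (SE), adjusted p = 0.00166), while Cd74, its invariant chain, did not pass (log2 fold change 0.09 ± 0.10 (SE), adjusted p = 0.662). Of 13 lymphocyte and 7 mast cell and neutrophil markers 0 passed by edgeR, with 0 and 1 at an unadjusted p under 0.05, and by DESeq2 0 and 1 passed; without rat 66, or with it counted in MI, the mast cell and neutrophil count was 1. The summed lymphocyte level was 9.67 to 12.5 CPM in Sham rats and 9.08 to 15 CPM in MI + UA rats.

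Markers of cardiomyocytes were lower, and those of the other cell types are read against 9.44% called over all genes and 13.4% over genes with an average log2 CPM of 1 or more. Cardiomyocyte markers had 14 of 17 genes lower and 0 higher (10 without rat 58), at a median of -0.39, and summed to 27500 to 32800 CPM in Sham rats and 21300 to 25800 CPM in MI + UA rats. The share of that fall in the sarcomere and metabolic results was not tested. Myh6 and Myh7, which gave this list its largest fall (-0.69) and its only higher mean (0.24), are also sarcomere genes. Of 15 endothelial markers 2 were lower, and 1 without rat 12, 17, 38, 58 or 64. Kdr, the VEGF receptor, read 158, 163, 150 and 137 CPM in Sham and 102, 92.2, 118 and 111 CPM in MI + UA (log2 fold change -0.52 ± 0.11 (SE), adjusted p = 0.00288), and Pecam1 did not pass (log2 fold change -0.17 ± 0.09 (SE), adjusted p = 0.295). Smooth muscle and pericyte markers had 2 of 13 higher and 1 lower, 3 in all against 1 without rat 38 or 64 and 5 without rat 66. Of 8 adipocyte-list genes 5 were lower, among them Lpl, Fabp4 and Plin4, which heart muscle and vessels also express. Adipoq, the defining adipocyte hormone, was at 0 in every Sham rat and in rats 58, 64 and 66. Mesothelial and cartilage markers had 2 of 8 higher, Sox9 and Chad, and fast skeletal muscle markers 1 of 6, Tnnt3 at 0.73 ± 0.18 (SE; adjusted p = 0.0108). Of 4 red blood cell markers 0 passed by edgeR (0 unadjusted) and by DESeq2.

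Schwann and nerve markers were highest in rat 58. Of 10 tested 6 were higher and 0 lower, with 3 without rat 12 or 58 and 2 without rat 38. The list summed to 209, 555, 190 and 179 CPM in rats 29, 58, 64 and 66, and to 131 to 140 CPM in Sham. Scn7a, a sodium channel-like protein of Schwann cells, read 80.5, 74, 72.5 and 68.3 CPM in Sham and 97.4, 358, 84.9 and 83.5 CPM in MI + UA (log2 fold change 1.07 ± 0.32 (SE), adjusted p = 0.0421). It lost its call without rat 12, 17, 32, 38 or 58, with 0.26 and an adjusted p of 0.196 without rat 58, and by DESeq2 (adjusted p = 0.106). Sox10, the lineage factor of Schwann cells, read 5.9, 6.93, 6.23 and 6.44 CPM against 10.9, 28.2, 11.6 and 8.83 CPM and kept its call without rat 58 at a log2 fold change of 0.70 (adjusted p = 0.0174). The part of nerve tissue in the other results of rat 58 was not tested.

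**Figure D4:**
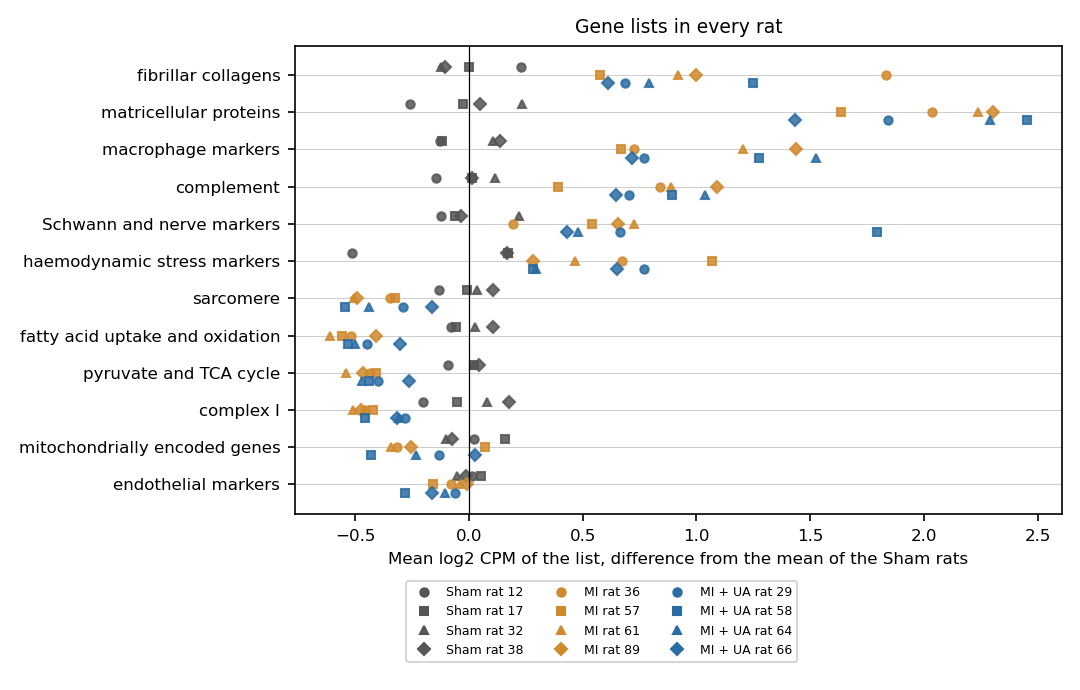
Mean log2 CPM of 12 lists in every rat, as the difference from the mean of the Sham rats (horizontal axis), with colours for groups and symbols for rats within a group. Matrix, macrophage and complement lists lie right of 0 and sarcomere, fatty acid, TCA cycle and complex I lists left of it in all MI + UA rats; rat 58 lies at 1.79 for nerve genes, where the other treated rats lie between 0.43 and 0.67.

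Other stress and growth responses were mixed, from lists with 0 calls to immediate early and angiotensin genes, both read against 9.44% called over all genes. Of 27 cell cycle genes 0 passed by edgeR or DESeq2 (2 had an unadjusted edgeR p under 0.05; 1 passed without rat 17), and Mki67, the proliferation marker, had log2 fold change 0.21 ± 0.19 (SE), adjusted p = 0.578. Of 17 clock genes 0 passed by either tool (5 unadjusted), but 2 without rat 12 and 1 without rat 66 or with it counted in MI. Heat shock proteins had 1 of 20 lower (0 without rat 38 or 64), and the amino acid and integrated stress response had 2 of 18 higher (1 without rat 12, 17, 38, 58 or 64 or with rat 66 counted in MI), with its main factor Atf4 at 0.07 ± 0.09 (adjusted p = 0.714). Immediate early genes had 5 of 18 higher and 0 lower, but 1 without rat 17, 29, 32 or 66, 2 without rat 38, 3 without rat 64 and 1 with rat 66 counted in MI. The gene that passed in every fit that left out a rat was Egr3, a growth-response zinc finger factor, at 1.5, 1.16, 2.02 and 0.358 CPM in Sham and 3.71, 3.73, 4.87 and 5.06 CPM in MI + UA (log2 fold change 1.83 ± 0.36 (SE), adjusted p = 0.00237). Of 9 angiotensin and endothelin genes 3 were higher, with 0 without rat 12 or 32 and 1 without rat 29, 38 or 64.

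Outside the lists, 2 genes were among the largest rises. Clec2dl1, a C-type lectin-like gene, read 0, 0.144, 0 and 0.358 CPM in Sham and 1.09, 6.68, 3.38 and 1.63 CPM in MI + UA (log2 fold change 4.31 ± 0.87 (SE), adjusted p = 0.0029). Bnc2, a zinc finger factor of fibroblasts, went from 0.878, 0.866, 0.505 and 0.238 CPM to 4.91, 5.27, 9.34 and 5.18 CPM (log2 fold change 3.26 ± 0.34 (SE), adjusted p = 3.3e-06). Among genes outside the lists with non-overlapping groups and an average log2 CPM of 1 or more, RGD1305184 had the largest fall (log2 fold change -1.72 ± 0.46 (SE), adjusted p = 0.0206), with a call lost without rat 12, 29 or 64 (up to 0.0985) and by DESeq2 (0.0525). Gbp1, an interferon-induced GTPase, read 111, 48.9, 66.3 and 70.9 CPM in Sham and 28.9, 25.7, 23.7 and 36.9 CPM in MI + UA (log2 fold change -1.35 ± 0.21 (SE), adjusted p = 0.000339). Aqp7, a glycerol channel, fell by 0.93 ± 0.17 on the log2 scale (SE; adjusted p = 0.00114). Penk, the enkephalin precursor, read 117, 139, 163 and 174 CPM against 51.2, 105, 91.8 and 69.9 CPM (log2 fold change -0.91 ± 0.18 (SE), adjusted p = 0.00209). Btnl9, a butyrophilin-like protein of capillary endothelium, read 13.3, 12.8, 11.8 and 11 CPM against 5.77, 6.04, 7.17 and 6.08 CPM (log2 fold change -0.98 ± 0.19 (SE), adjusted p = 0.00217). Khdrbs3, an RNA-binding protein, fell by 0.89 ± 0.18 (SE; adjusted p = 0.00304).

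Whether treated infarcted hearts differed from untreated ones was tested directly. Between MI + UA and MI 0 of 18182 genes passed (edgeR; smallest adjusted p = 0.9997), 689 (3.79%) had an unadjusted p under 0.05, and DESeq2 called 0 with 481 under 0.05. MI + UA and MI did not overlap in 2.03% of genes with an average log2 CPM of at least 1. For 1283 of the 1716 genes called against Sham the 95% interval of MI + UA over MI lay within 1.5-fold either way, and for the other genes a larger difference could not be told apart from none at this number of rats. Against the same Sham rats, MI had 2064 calls (11.4%; 5.82% of all genes higher and 5.53% lower), with 400 genes higher and 46 lower by more than 2-fold.

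**Figure D5:**
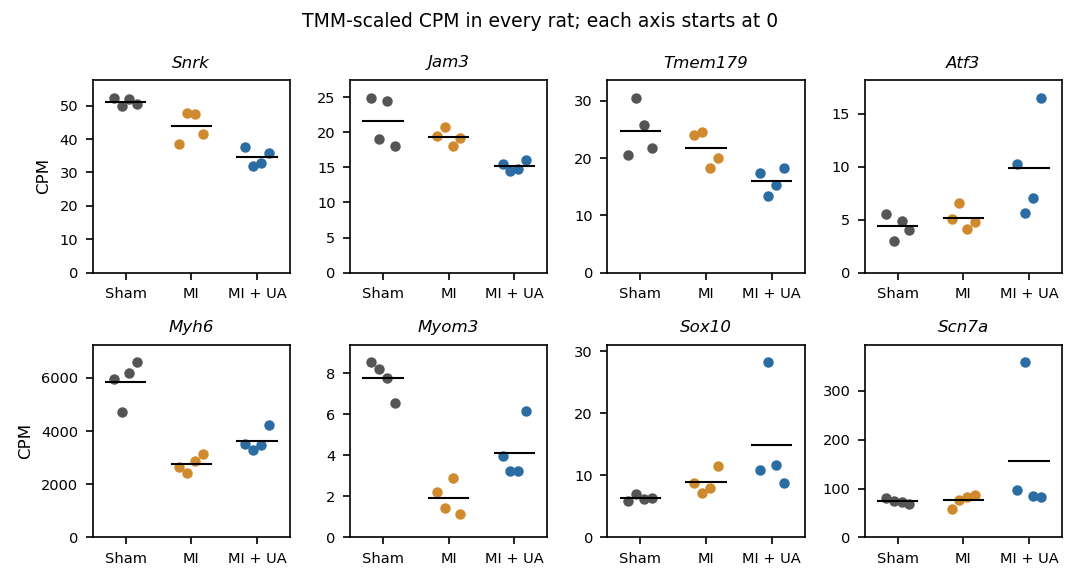
TMM-scaled CPM of 8 genes in every rat (points; bars are group means; vertical axes start at 0), among them genes with the smallest unadjusted p between MI + UA and MI. Snrk, Jam3 and Tmem179 are lower in MI + UA than in both other groups, Myh6 and Myom3 lie between MI and Sham, and rat 58 stands alone in Scn7a and Sox10.

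The genes called against Sham with the smallest unadjusted p against MI and no overlap with MI are given as values; none passed adjustment against MI (edgeR, adjusted p of 0.9997 or more). Myh6 lay between the groups, with 2652, 2429, 2858 and 3148 CPM in MI below the MI + UA values given above, a difference of 0.39 ± 0.11 (log2, SE; unadjusted p = 0.00168). Myom3, an M-band protein, read 8.53, 8.23, 7.74 and 6.56 CPM in Sham, 3.94, 3.21, 3.25 and 6.13 CPM in MI + UA and 2.19, 1.41, 2.91 and 1.14 CPM in MI, with 1.14 ± 0.27 over MI (unadjusted p = 0.000432). Its call against Sham (adjusted p = 0.0278) was lost without rat 12, 17, 29, 32, 58 or 64 (up to 0.0791) and with rat 66 counted in MI (0.0546). Snrk, a kinase related to AMPK, read 52.4, 49.8, 51.9 and 50.5 CPM in Sham, 37.5, 32, 32.9 and 35.9 CPM in MI + UA and 38.4, 47.7, 47.6 and 41.4 CPM in MI. It fell by 0.56 ± 0.09 against Sham (SE; adjusted p = 0.000513) and its difference from MI was -0.33 ± 0.09 (unadjusted p = 0.00172). Jam3, a junction adhesion protein, read 25, 19.1, 24.4 and 18 CPM in Sham, 15.5, 14.5, 14.8 and 16 CPM in MI + UA and 19.4, 20.7, 18.1 and 19.2 CPM in MI (log2 fold change -0.50 ± 0.12 (SE), adjusted p = 0.00845). Tmem179, a membrane protein, fell by 0.60 ± 0.14 against Sham (SE; adjusted p = 0.00801), against -0.41 ± 0.14 over MI. In Snrk, Jam3 and Tmem179 all 4 treated rats lay below all 8 others.

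Further genes chosen by that rule were Slitrk6, a neuronal membrane protein, and Cerkl, a ceramide kinase-like protein, both higher, and Efnb1, an ephrin ligand, lower. Slitrk6 read 10.2, 21.6, 7.17 and 7.26 CPM in MI + UA, with rat 58 highest, and 5.78, 3.92, 4.57 and 6.36 CPM in MI. Its call against Sham was lost without rat 12, 17, 32, 38 or 58 (adjusted p up to 0.144), that of Cerkl without rat 12, 32, 38, 58 or 64 (up to 0.139), and that of Efnb1 without rat 17, 32 or 58 (up to 0.0815) or with rat 66 counted in MI (0.0531). Atf3, a stress-induced transcription factor named through its list, read 5.52, 3.03, 4.88 and 4.05 CPM in Sham, 10.3, 5.65, 7.04 and 16.5 CPM in MI + UA and 5.04, 6.59, 4.15 and 4.81 CPM in MI. Rats 66 and 29 were the highest of all rats, the call against Sham held without any 1 rat (log2 fold change 1.23 ± 0.28 (SE), adjusted p = 0.00647) but not with rat 66 counted in MI (0.85, adjusted p = 0.208), and the difference from MI was 1.01 ± 0.26 (unadjusted p = 0.000844, adjusted p of 0.9997 or more).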

How the data were processed

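RNA sequencing libraries from heart sections were analysed from the gene counts that the authors deposited, 1 column of raw read counts per rat. The submitters' processing notes name STAR 2.6.1c, HTSeq, MultiQC 1.8 and the mRatBN7.2 build. The labels give polyA RNA, while the protocol describes rRNA depletion and a strand-specific library. The strand setting of the counting was not given in the sources used here, so overlapping antisense genes cannot be told apart. The table held 30560 genes, and 5 summary rows were left out of library sizes and tests. Reads outside genes made up 42.5% to 50.2% of the counted reads. Depth ran from 6228706 to 19031695 reads on genes, and shallower libraries give less precise values for low genes.

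Genes with at least 10 reads over the 12 libraries (18182) were fitted by edgeR 4.0.16 (quasi-likelihood test, TMM scaling, limma 3.58.1, R 4.3.3) with 3 groups sharing 1 estimate of the spread, and p-values were adjusted over all genes tested by the Benjamini-Hochberg method. DESeq2 1.42.0, other scalings and filters, thinning to the smallest library, glmTreat against 1.5-fold, rat 66 counted in MI and each rat left out were the alternatives. Per-rat values are TMM-scaled CPM. Single library measures were compared by exact permutation tests over rats. The fit was tested on simulated data for MI + UA against Sham over 17883 genes. Changes were placed only in genes with an average log2 CPM of at least 1. Counts were drawn gene by gene from the spread that the fit itself had estimated. Of the genes changed by 0.5, 1 and 2 on the log2 scale, 35.4%, 82.8% and 100% were recovered, and 10 of 17683 unchanged genes were called. Changes in lower genes, and a rat set apart in many genes together, were not simulated.

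Named genes were the 15 largest rises and 15 largest falls with non-overlapping groups and an average log2 CPM of at least 1, up to 5 called members and the defining members of each list, up to 8 called genes with the smallest unadjusted p between MI + UA and MI without overlap, and the mitochondrially encoded genes as a range. Not all of them are described. Counts for each list cover all its tested genes: 971 of 1035 listed symbols were in the table and 942 were tested. The groups, lists and rules were chosen with earlier results of these data known. Another MI + UA library that the protocol mentions is not analysed here. Ratios against 1 to 3 reads have 95% counting intervals, which cover counting error only.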

Additional observations from a re-analysis of the deposited data

Results flagged for a closer look

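In 364 groups of 4 rats (the named genes, 5 library measures and 55 list scores, in MI + UA and in Sham), 18 had a rat far from the other 3, by a gap above Dixon's 95% critical value for 4 samples. Chance flags about 1 in 20 such groups, which is near the number seen. Of the 18, 5 were rat 58 and 4 were rat 12.

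Rat 58 stood apart in MI + UA at 358 CPM for Scn7a, 28.2 CPM for Sox10, 42.4 CPM for Tnc and 257 CPM for Kcnip2, and 46.2% of its counted reads lay on genes. Rat 12 stood apart in Sham at 100.4 CPM for Nppb, 62.0 CPM for Fbn1, and list scores (mean log2 CPM minus the Sham mean) of -0.51 for haemodynamic stress markers and -0.22 for complex IV. In the other MI + UA rats, Bgn was lowest in rat 66 at 424 CPM, Bnc2 highest in rat 64 at 9.34 CPM, Cat lowest in rat 64 at 174 CPM, Fstl3 set apart in rat 29 at 7.88 CPM, and Adipoq present in rat 29 alone at 0.286 CPM. The list score of mast cell and neutrophil markers was 0.47 in rat 29 and that of smooth muscle and pericyte markers was 0.031 in rat 66. In Sham, the score of collagen processing and crosslinking was 0.035 in rat 32 and that of lymphocyte markers was -0.31 in rat 17. The causes were not tested.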

How the results depend on the processing

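Calls between MI + UA and Sham numbered 1635 to 1921 by DESeq2, other scalings and filters, thinning or with rat 66 counted in MI, and 1155 to 1895 when single rats were left out. Against a change of 1.5-fold (glmTreat) 125 genes passed, 122 higher and 3 lower, and 149 between MI and Sham, where leaving out rats gave 1468 to 2182. Between MI + UA and MI, 3 genes passed when genes with at least 1 read were tested, and 0 to 1 when rats were left out. Those 3 were named after their values were seen: Enc1 (edgeR, log2 fold change -1.05, adjusted p = 0.00562), Col2a1 and a gene without a symbol. Col2a1 had 409 reads, from 3 of the 12 rats, and only 1 read in MI + UA. The gene without a symbol had 72 reads, from 4 rats, and 0 in MI + UA. Enc1 passed without rat 36 as well (edgeR, adjusted p = 0.0155). In the main edgeR fit the smallest adjusted p against MI was 0.9997. Groups of MI + UA and Sham did not overlap in 2589 to 3088 genes without single rats, since fewer rats overlap less often. Directions turned for genes that did not pass: Adipoq was 0 without rat 29, Hk2 0.0063 and Gata4 0.0057 without rat 58, Nppb -0.032 without rat 12, Hmox1 0.0027, 0.028 and 0.028 without rats 29, 58 and 12, Atf4 -0.00037 with rat 66 in MI and -0.00081 without it, and Cd74 -0.0025 without rat 64; the cause was not tested. No paired analysis was possible because each rat gave a single library to a single group. With 4 rats a group, changes under 2-fold were recovered in part only.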
